A study of Rattus norvegicus with 64 samples.

Results

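Smooth muscle contractile genes were followed in the lungs of rats that had breathed fracking sand dust or filtered air. The set holds 10 genes, taken by symbol from the 30045 symbols of the count tables: Acta2, Actg2, Myh11, Tagln, Cnn1, Smtn, Lmod1, Des, Synpo2 and Myocd. The animals, outbred male Sprague-Dawley rats whose age the labels do not give, all spent 6 hours daily in a whole-body exposure chamber, 4 days running. Dust was given at 10 or at 30 mg/m3, each dose in a study with air rats of its own. Lungs were taken 1, 7 or 27 days after exposure ended. In the 10 mg/m3 study there were 5 dust and 5 air rats at day 1, the same numbers at day 7, and 4 dust and 4 air rats at day 27. In the 30 mg/m3 study each of the 6 groups held 6 rats. Each library came from a piece of 1 lung, and how much airway and vessel wall a piece contained is not recorded.

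Smooth muscle surrounds the airways and the blood vessels of the lung, where its tone sets how wide they are. Its contractile machinery consists of actin filaments pulled by smooth muscle myosin, of proteins that line the actin filaments and tune the motor, and of an intermediate filament network that passes the force on. Transcription of many of these genes is driven by serum response factor (Srf) together with its coactivator myocardin, which meet at a short DNA element called the CArG box. Pericytes, myofibroblasts and heart muscle share some of these genes, and in rats heart muscle extends from the heart along the pulmonary veins into the lung.

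Since the CArG box is the element through which these genes are known to be switched on together, the promoters were searched for it. RefSeq promoter windows on the GRCr8 assembly, 300 bases long with 250 before and 50 after the start, were at hand for 6 members: Acta2, Cnn1, Des, Actg2, Synpo2 and Smtn. An exact box was 2 C, 6 bases of A or T and 2 G; a relaxed match let 1 of the 6 inner bases be C or G, which reads the same on both strands. Of 33469 windows, 1.64% held an exact box, 9.42% at least 1 relaxed match and 0.846% at least 2. None of the 6 members had an exact box in this window. Acta2 had 2 relaxed matches, CCCTATATGG beginning 134 bases and CCTTGTTTGG beginning 84 bases before the start, and the other 5 had none. In the Actg2 window the start lies shortly before an ATG, so this window may not cover the promoter of that gene. The absence of a match in Actg2 is therefore uncertain. The windows of Acta2, Cnn1 and Smtn are shown. From rat to rat Acta2 varied with Smtn and less closely with Cnn1, while Cnn1 and Smtn did not vary together, as described further on. Capitals mark the relaxed matches, and each sequence runs 5′ to 3′ along the gene's own strand.
Acta2, chr1:241172454-241172753, minus strand: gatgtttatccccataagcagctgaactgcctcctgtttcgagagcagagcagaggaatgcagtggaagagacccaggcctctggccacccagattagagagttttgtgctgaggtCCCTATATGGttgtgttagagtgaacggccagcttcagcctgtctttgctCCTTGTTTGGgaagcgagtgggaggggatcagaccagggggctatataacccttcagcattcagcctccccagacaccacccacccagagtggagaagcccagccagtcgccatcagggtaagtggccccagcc
Cnn1, chr8:28908187-28908486, plus strand: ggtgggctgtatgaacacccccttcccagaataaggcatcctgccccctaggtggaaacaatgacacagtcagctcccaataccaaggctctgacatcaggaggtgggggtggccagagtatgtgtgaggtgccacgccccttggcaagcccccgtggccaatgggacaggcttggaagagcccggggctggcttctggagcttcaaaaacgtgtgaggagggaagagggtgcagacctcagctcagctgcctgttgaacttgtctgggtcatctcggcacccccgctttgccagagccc
Smtn, chr14:82644465-82644764, minus strand: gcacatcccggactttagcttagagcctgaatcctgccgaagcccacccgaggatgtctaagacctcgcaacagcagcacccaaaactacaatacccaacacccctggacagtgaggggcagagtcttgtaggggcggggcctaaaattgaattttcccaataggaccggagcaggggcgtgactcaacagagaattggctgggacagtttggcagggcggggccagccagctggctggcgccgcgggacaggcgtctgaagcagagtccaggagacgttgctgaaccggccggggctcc

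Library totals ran from 3420235 to 12359518 counts (median 8716414). The alveolar type 2 gene Sftpc lay between 6613 and 13940 CPM, counts scaled to the size of the library, the alveolar type 1 gene Ager between 1312 and 2438 CPM and the endothelial gene Pecam1 between 220.5 and 413 CPM, so every library carried its tissue's defining transcripts. Dust rat 27 of day 1 at 10 mg/m3 stood apart: it had the lowest total of all and, on the ribosomal RNA symbols Rnr1 and Rnr2, 2.62% of its counts, where the other 4 dust rats of that group had 0.4926% to 0.819%. Air rats 51 and 53 of day 1 at 30 mg/m3 had counts for 21889 and 22077 genes, against 18794 to 19274 in the other 4 air rats of that group. The comparisons that use these rats were also run without them, and values without them are given beside the results where a call changed or a named member moved. In tissue pieces, fewer cells of a type and less RNA per cell cannot be told apart. All levels below are CPM scaled by factors computed over the 64 libraries together.

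Acta2 encodes the alpha actin of smooth muscle and had a within-group SD of 0.42 on the log2 scale with all rats, the largest of the 10 members, but 0.30, the fifth largest, without rat 27. On day 1 at 10 mg/m3 it measured 72.8, 75.9, 76.6, 78.3 and 397 CPM in dust rats, against 70.1, 102, 111, 117 and 192 CPM in air rats. The value of 397 CPM belonged to rat 27; the other 4 dust rats lay together in the lower part of the air range. On day 7 the dust rats had 112, 117, 134, 138 and 152 CPM and the air rats 79.4, 93.3, 95.8, 103 and 160.4 CPM. On day 27 the dust rats had 127, 128, 163 and 169.6 CPM and the air rats 100.3, 130.1, 141 and 188 CPM. The groups overlapped on both days. In the 30 mg/m3 study Acta2 ran from 50.1 to 88.6 (median 55.0001) CPM in dust rats and 59.3 to 74.2 (median 62.8) CPM in air rats on day 1, and from 69.5 to 97.98 (median 80.8) CPM in dust and 77.95 to 107 (median 94.8) CPM in air on day 7. On day 27 it ran from 71.9 to 129 (median 91.4) CPM in dust and 64.9 to 128 (median 103) CPM in air. The 2 day 1 groups were the lowest of that study, and dust and air overlapped on each day.

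Actg2 encodes the gamma actin of smooth muscle, the actin of visceral muscle layers. Because its coding sequence is close to that of Acta2 and other actins, reads could have been split between them or lost when counted, and its values and those of Acta2 are uncertain to that extent. Dust rats at 10 mg/m3 had 53.1, 64.1, 66.7, 75.5 and 102 CPM on day 1, against 58.9, 65.95, 66.2, 79.7 and 109 CPM in air rats. On day 7 the values were 58.05, 60.9, 61.98, 66.6 and 88.9 CPM in dust rats and 41.6, 50.2, 64.7, 66.4 and 80.1 CPM in air rats. Both days overlapped broadly. On day 27, 73.7, 81.9, 91.2 and 92.5 CPM was measured in dust rats and 48.7, 61.4, 67.3 and 74.1 CPM in air rats; here the highest air value lay just above the lowest dust value. At 30 mg/m3 it ran from 53.3 to 101 (median 62.5), 65.3 to 122 (median 93.98) and 53.5 to 86.8 (median 67.97) CPM in dust rats on days 1, 7 and 27, and from 41.6 to 91.9 (median 67.4), 79.9 to 101 (median 84.6) and 64.98 to 76.5 (median 73.8) CPM in air rats. The highest Actg2 level of the whole series was a day 7 dust rat of this study.

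Myh11 encodes the heavy chain of smooth muscle myosin, the motor itself. On day 1 at 10 mg/m3 it measured 459, 517, 518, 553 and 829.7 CPM in dust rats, where rat 27 was again the highest, against 528, 585, 683, 699 and 744 CPM in air rats. On day 7 it was 758, 793, 909, 920.1 and 959 CPM in dust and 640.4, 716, 744, 784 and 990.2 CPM in air, and on day 27 819, 852, 1005 and 1078 CPM in dust and 496, 752, 777 and 899 CPM in air. On day 27, 3 of the 4 air rats lay below every dust rat. At 30 mg/m3 Myh11 ran from 451 to 709 (median 523), 533 to 828 (median 734) and 626 to 909 (median 727) CPM in dust rats on days 1, 7 and 27, and from 444 to 747 (median 498), 480.0 to 796 (median 695) and 617 to 819 (median 760.2) CPM in air rats. In that study the day 1 medians were the lowest of each exposure, and air rat 51 stood above the other 5 air rats of day 1.

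The proteins of the actin filament included the steadiest member. Tagln (SM22, a small actin-binding protein) had the smallest within-group SD of the 10 members, 0.21 on the log2 scale, and ran from 237.6 to 498 CPM over all 64 rats. Cnn1, calponin, which binds actin and slows the myosin motor, had an SD of 0.37 and ran from 18.4 to 67.2 CPM; its lowest values, 18.4 and 18.7 CPM, were air rats 54 and 55 of day 1 at 30 mg/m3. Smtn, smoothelin, an actin-binding protein of contractile cells, ran from 15.9 to 56.6 CPM, and Lmod1, leiomodin, which starts new actin filaments, from 18.4 to 47.6 CPM.

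Des encodes desmin, the intermediate filament protein of muscle. At 10 mg/m3 dust rats had 85.05, 88.4, 92.5, 94.3 and 128 CPM on day 1, against 78.9, 86.1, 121, 123 and 130.2 CPM in air rats. On day 7 dust rats had 66.7, 75.7, 82.4, 83.98 and 89.03 CPM and air rats 49.9, 57.5, 68.3, 68.4 and 107 CPM, and on day 27 dust rats had 74.4, 107, 107 and 118 CPM and air rats 72.01, 81.3, 91.3 and 130.4 CPM. The air group of day 7 was the lowest on average of the 12 groups, with 4 of its 5 rats at 68.4 CPM or less. At 30 mg/m3 Des ran from 64.8 to 92.5 (median 75.9), 66.4 to 104 (median 86.7) and 68.8 to 108 (median 97.8) CPM in dust rats on days 1, 7 and 27, and from 56.3 to 97.2 (median 71.9), 87.4 to 109 (median 97.8) and 85.5 to 122 (median 103) CPM in air rats. Synpo2, a protein of actin bundles and Z-discs, ran from 18.9 to 121 CPM over all rats, and its next highest rat had 71.1 CPM.

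Myocd encodes myocardin, the coactivator of Srf. It was counted with 22 to 102 reads per library, so its values carry more counting error than those of the other members. At 10 mg/m3 dust rats had 5.00, 5.00, 6.24, 6.36 and 20.3 CPM on day 1, against 5.19, 6.29, 7.71, 8.31 and 13.8 CPM in air rats. On day 7 dust rats had 5.30, 5.69, 7.38, 8.11 and 8.60 CPM and air rats 4.52, 5.55, 7.29, 7.51 and 12.4 CPM, and on day 27 dust rats had 7.16, 7.84, 8.03 and 8.55 CPM and air rats 6.63, 9.47, 10.4 and 11.8 CPM. Rat 27 was the highest rat of the series, and dust and air overlapped on each day. At 30 mg/m3 Myocd ran from 4.33 to 6.40 (median 4.96), 4.82 to 8.45 (median 5.70) and 5.08 to 9.09 (median 7.56) CPM in dust rats on days 1, 7 and 27, and from 3.76 to 8.40 (median 6.26), 6.72 to 9.44 (median 7.57) and 6.04 to 8.35 (median 7.12) CPM in air rats.

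By group mean of log2 CPM, 5 of the 10 members were lowest in dust rats of day 1 at 30 mg/m3 (Acta2, Lmod1, Synpo2, Smtn and Myocd), Myh11 and Cnn1 were lowest in air rats of that day, and Acta2, Myh11, Lmod1 and Synpo2 were highest in dust rats of day 27 at 10 mg/m3. The distance between the lowest and the highest group mean was 0.38 for Tagln and 1.21 for Acta2 on the log2 scale. For each of the 10 members, neighbouring groups in this order were closer to each other than the within-group SD.

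**Figure D1:**
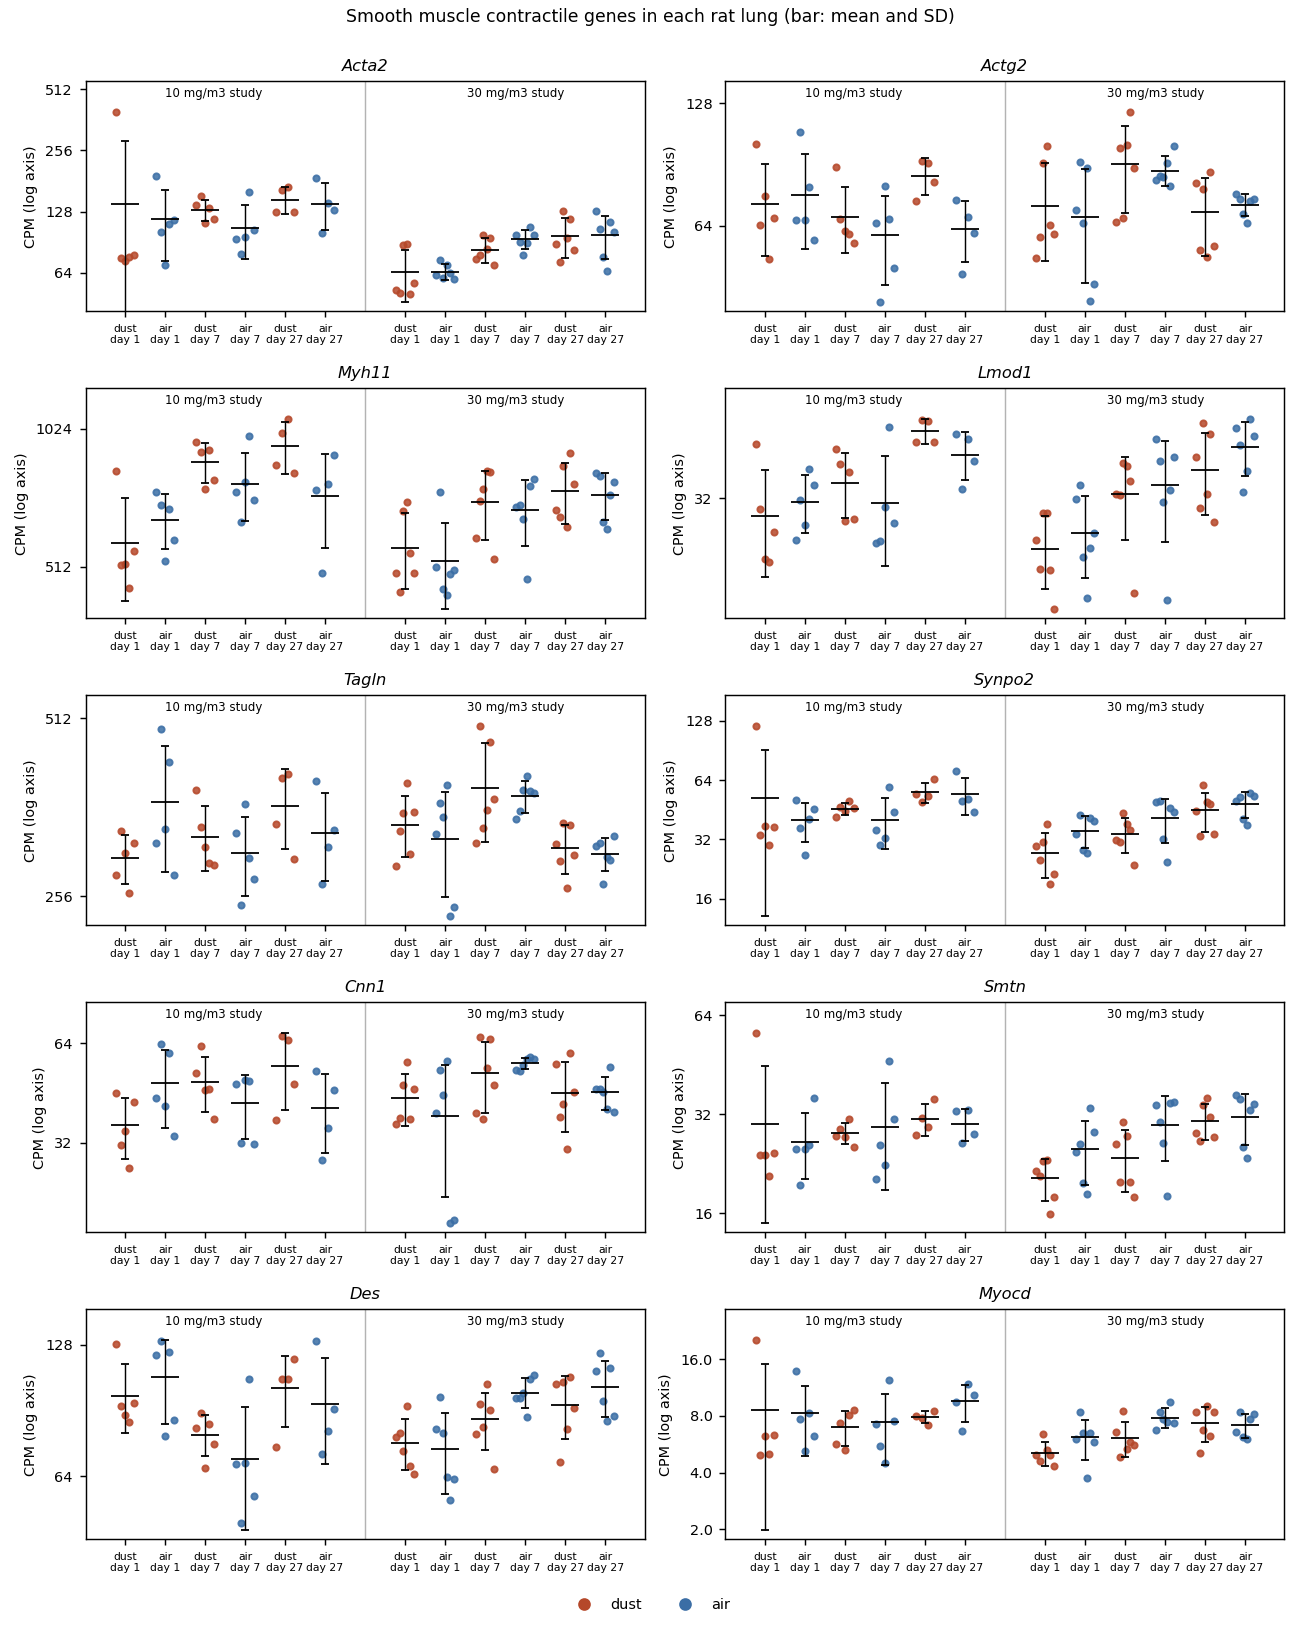
Level of each of the 10 genes in every rat, in CPM on a log axis, by exposure and day, with the 10 mg/m3 study left and the 30 mg/m3 study right of the grey line. Each dot is 1 rat and each bar the group mean with its SD, cut at the axis where the SD reaches below it (Acta2, day 1 dust at 10 mg/m3, where rat 27 had 397 CPM). Dust and air rats overlap in every panel, while at 30 mg/m3 most day 27 dots of Acta2, Myh11, Lmod1, Synpo2 and Smtn sit above the day 1 dots of the same exposure.

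Setting each dust group against its own air group asks whether the exposure changed smooth muscle transcripts. At 10 mg/m3, 0 of the 10 members passed on any day. Differences are log2 dust minus air with their standard error (SE), tested with edgeR across all genes and called at an adjusted p under 0.05. On day 1, 0.128% of the 15668 genes tested were called, and on days 7 and 27, 0%. Before adjustment, p was under 0.05 for 2, 0 and 2 members on days 1, 7 and 27, and for 2957, 620 and 369 genes. DESeq2 also called 0 members on each day, and 476, 0 and 0 genes.

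On day 1 at 10 mg/m3 the lowest p values belonged to Tagln and Cnn1, both with a negative difference. Tagln had 259, 278, 303, 315 and 330.4 CPM in dust rats and 278, 316, 332, 433 and 492 CPM in air rats, a difference of -0.32 ± 0.14 (SE; adjusted p = 0.201). Cnn1 had 26.9, 31.5, 34.7, 42.5 and 45.1 CPM in dust rats and 33.5, 41.4, 43.6, 59.9 and 63.5 CPM in air rats, a difference of -0.44 ± 0.21 (SE; adjusted p = 0.248). In both genes the dust rats overlapped the lower air rats, and 2 air rats, 18 and 20, were the highest. Myh11 came next with -0.18 ± 0.15 (SE; adjusted p = 0.55). The other 7 members had differences between -0.15 and 0.31, and the median over the 10 members was -0.11, beside -0.0095 over all genes tested. Acta2 had 0.21 ± 0.38 (SE; adjusted p = 0.801) with rat 27 and -0.66 (adjusted p = 0.165) without it. Synpo2 and Smtn also changed sign, with 0.31 and 0.13 over all 5 dust rats, against -0.22 and -0.19 without rat 27, so that all 10 members were then below 0; 0 passed either way.

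On day 7 at 10 mg/m3 the differences of Cnn1, Myh11 and Lmod1 were 0.22 ± 0.20, 0.17 ± 0.15 and 0.16 ± 0.16 (SE; adjusted p = 0.996 each). Cnn1 was 37.7, 46.1, 46.5, 52.01 and 62.7 CPM in dust rats and 31.9, 31.95, 48.2, 49.1 and 49.4 CPM in air rats, and Lmod1 was 28.6, 28.8, 36.6, 38.02 and 40.98 CPM in dust rats and 25.6, 25.9, 28.3, 30.7 and 45.8 CPM in air rats. The groups overlapped in both genes, with air rat 37 the highest rat for Lmod1. On day 27 Actg2 had 0.44 ± 0.20, Myh11 0.37 ± 0.17 and Cnn1 0.43 ± 0.23 (SE; adjusted p = 1.0 each). Cnn1 measured 37.5, 48.3, 65.5 and 67.2 CPM in dust rats and 28.3, 35.5, 46.2 and 52.6 CPM in air rats, with 2 dust rats above every air rat. Over the 10 members the median difference was 0.16 on day 7 and 0.14 on day 27, beside -0.0071 and -0.01 over all genes. In the day 7 comparison all 14 heart muscle markers tested were above 0, with a median of 1.67, and their summed level was 159 to 1988 CPM in dust rats (median 588) and 138 to 1316 CPM in air rats (median 154). With the heart muscle score, the mean log2 CPM of 18 such markers, as a covariate, the differences of Cnn1, Myh11 and Lmod1 on day 7 were 0.09, 0.07 and 0.03 (adjusted p = 1 each).

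At 30 mg/m3 as well, 0 of the 10 members passed on days 1, 7 or 27, where 0%, 0.0643% and 0% of the 15551 genes tested were called. Before adjustment 1, 2 and 0 members and 2334, 776 and 1141 genes had p under 0.05. DESeq2 called 0 members on each day, and 46, 55 and 0 genes. The intervals were narrower here than at 10 mg/m3, except those of Lmod1 on days 1 and 7 and of Cnn1 on day 1. On each of the 3 days the 95% interval of every member lay within 1 log2 unit of 0. Their widest bounds were -0.72 and 0.63 on day 1, -0.67 and 0.40 on day 7, and -0.48 and 0.43 on day 27.

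The members with the smallest p at 30 mg/m3 were Synpo2, Smtn and Myocd, each with a negative difference on days 1 and 7. On day 1 Synpo2 ran from 18.9 to 38.4 (median 27.4) CPM in dust rats and 27.2 to 42.7 (median 36.9) CPM in air rats, a difference of -0.36 ± 0.18 (SE; adjusted p = 0.33). Smtn ran from 15.9 to 23.3 (median 21.1) CPM in dust rats and 18.3 to 33.3 (median 25.3) CPM in air rats, a difference of -0.29 ± 0.15 (SE; adjusted p = 0.359), and Myocd differed by -0.27 ± 0.16 (SE; adjusted p = 0.396). The upper dust rats and the lower air rats overlapped in all 3 genes. Without air rats 51 and 53, 0 members passed on day 1, and the smallest adjusted p, 0.0904, belonged to Cnn1 at 0.56. On day 7 Myocd differed by -0.36 ± 0.15 and Smtn by -0.34 ± 0.15 (SE; adjusted p = 0.892 and 0.959), and Smtn ran from 17.97 to 30.2 (median 22.999) CPM in dust rats and 18.05 to 34.9 (median 32.3) CPM in air rats. Des differed by -0.21 ± 0.12 (SE; adjusted p = 0.959). By day 27 the 3 smallest p values belonged to Des, Lmod1 and Synpo2, with -0.13 ± 0.12, -0.15 ± 0.16 and -0.09 ± 0.17 (SE; adjusted p = 0.924, 0.946 and 0.985). Synpo2 ran from 33.3 to 60.3 (median 46.6) CPM in dust rats and 37.9 to 55.2 (median 51.4) CPM in air rats, with nearly all of each group inside the other's range.

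**Figure D2:**
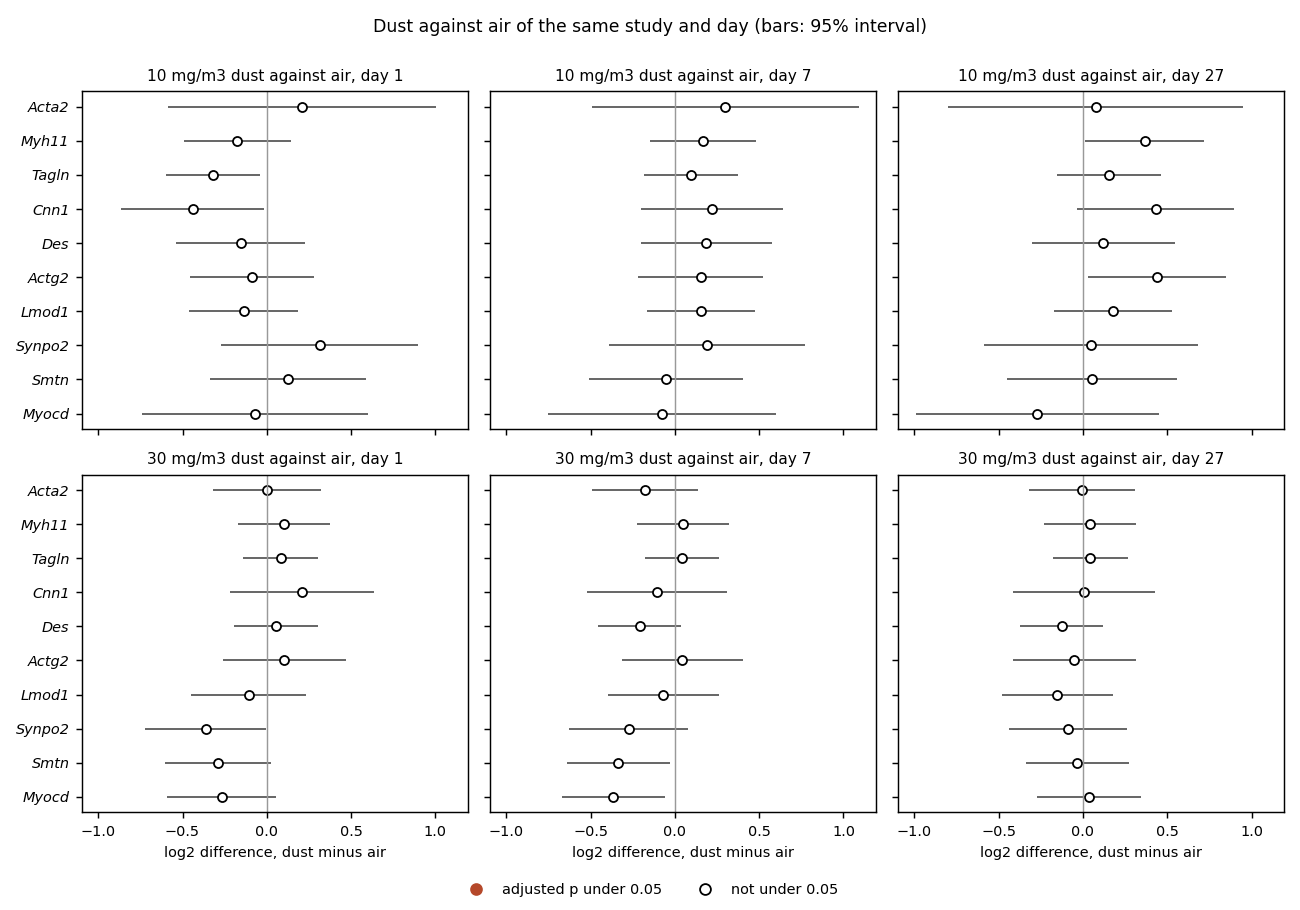
Log2 difference of dust minus air for each gene, with its 95% interval, on days 1, 7 and 27 in the 10 mg/m3 study (top) and the 30 mg/m3 study (bottom). Open dots did not pass an adjusted p of 0.05, and no dot is filled; the widest intervals are those of Acta2, Myocd and Synpo2 at 10 mg/m3, and every interval at 30 mg/m3 lies within 1 unit of 0.

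Heart muscle transcripts differed in the day 7 comparison at 30 mg/m3. The summed level of 18 heart muscle markers was 154 to 405 CPM in dust rats and 580.3 to 2042 CPM in air rats. All 17 of these markers that were tested were below 0, with a median difference of -2.5, and 2 fell past the threshold. Of the 18 markers, 9 had counts in every library, among them the cardiac troponin genes Tnnt2 and Tnni3. The number of libraries with 0 counts was 3 of 64 for Myh6, the atrial myosin heavy chain, 18 for Myh7, 21 for Myl3, 31 for Myl2 and 43 for Nppa, whose median was 0 CPM. Desmin is also the intermediate filament of heart muscle. With the heart muscle score as a covariate the Des difference was 0.07 (adjusted p = 0.834) in place of -0.21 ± 0.12, and the sign changed.

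Averaged over the 3 days, the effect of 30 mg/m3 dust passed for 0 members, where 1.2% of all genes were called. Smtn had -0.22 ± 0.09, Synpo2 -0.24 ± 0.10 and Myocd -0.20 ± 0.09 (SE; adjusted p = 0.186, 0.203 and 0.238), the only 3 members with an unadjusted p under 0.05. Their 95% intervals ran from -0.40 to -0.04, -0.45 to -0.04 and -0.38 to -0.02. The other 7 members lay between -0.11 and 0.06. Averaged at 10 mg/m3, 0 members passed, where 0.0319% of all genes were called, and 0 had an unadjusted p under 0.05. Actg2 had 0.17 ± 0.11, Myh11 0.12 ± 0.09 and Synpo2 0.18 ± 0.17 (SE; adjusted p = 0.611, 0.671 and 0.722). Without rat 27 the Synpo2 average was 0.01, that of Acta2 was -0.09 in place of 0.19, and Myocd had the smallest p, at -0.30 (adjusted p = 0.559). At 30 mg/m3, without air rats 51 and 53, Smtn was at -0.24, Synpo2 at -0.24 and Myocd at -0.20 (adjusted p = 0.0915, 0.145 and 0.136). DESeq2 called 0 members in both averages.

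The test of whether the dust effect depended on the day called 0 members and 0% of all genes in each study by edgeR. Unadjusted p was under 0.05 for 2 members and 1141 genes at 10 mg/m3, and for 0 members and 688 genes at 30 mg/m3. The 2 members were Cnn1 and Tagln (adjusted p = 0.655 and 0.681), whose difference at 10 mg/m3 was negative on day 1 and positive on days 7 and 27. The effect of 30 mg/m3 minus that of 10 mg/m3 was called for 0 members on days 1, 7 and 27, where 10.4%, 0% and 0% of 16190 genes were called; 3, 0 and 0 members and 4567, 1298 and 283 genes had an unadjusted p under 0.05. On day 1 the 3 were Tagln, Cnn1 and Synpo2, at 0.42 ± 0.18, 0.67 ± 0.30 and -0.66 ± 0.33 (SE; adjusted p = 0.106, 0.138 and 0.174). Without rat 27 Synpo2 was at -0.16, Cnn1 at 0.73 and Tagln at 0.38 (adjusted p = 0.768, 0.144 and 0.199), and Acta2 was at 0.64 in place of -0.19. Without air rats 51 and 53, also left out after the data were seen, Cnn1 and Tagln passed, at 0.99 and 0.55 (edgeR adjusted p = 0.015 and 0.0235). Air rats 54 and 55 of day 1, the lowest of all 64 rats for Cnn1, stayed in, and their part in the Cnn1 call was not tested. The share of all genes called in that run was not counted.

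Among other genes of smooth muscle, 1 passed when dust was set against air. Of 29 further contractile and cytoskeletal genes tested, Hspb6, a small heat shock protein that is a target of relaxing signals in smooth muscle, fell with 30 mg/m3 dust on the average of the 3 days, by 0.38 on the log2 scale (SE 0.0985; edgeR adjusted p = 0.0472). That is 1 of 29, where 1.2% of all genes were called. In the same average 0 of the 17 heart muscle markers were above 0, their median was -0.66 and 1 fell; their part in the Hspb6 difference was not tested. It also had the more negative effect at 30 mg/m3 on day 1 when the doses were compared (-0.93, SE 0.281; adjusted p = 0.028). In the 30 mg/m3 average, 0 of 17 regulators of smooth muscle genes, 0 of 23 receptors and channels of contraction and 0 of 12 pericyte genes passed. In the dose difference on day 1, where 10.4% of all genes were called, 2 of the 29 genes had a more positive and 1 a more negative effect at 30 mg/m3, as had 1 and 3 of the regulators, 3 and 1 of the receptors and 1 and 0 of the pericyte genes. In the 30 mg/m3 average the medians of regulators, receptors and pericyte genes were -0.11, -0.04 and -0.05, with 16 of the 17 regulators below 0, and that of the 29 genes was -0.02, beside 0.0065 over all genes. The guanylate cyclase subunit Gucy1a3, a receptor for nitric oxide, had the smallest p of the receptor list with 0.11 (adjusted p = 0.064). In the 3 daily comparisons of each dose, 0 genes of these 4 lists passed.

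Between day 1 and day 27 several smooth muscle genes of the 30 mg/m3 study rose, in dust and in air rats. In dust rats 6 of 10 members rose and 0 fell, where 34.3% of all genes were called, 17% higher and 17.3% lower. They were the myosin gene Myh11, the actin gene Acta2, the filament genes Lmod1, Smtn and Synpo2, and the coactivator Myocd. Synpo2 ran from 33.3 to 60.3 (median 46.6) CPM on day 27 and 18.9 to 38.4 (median 27.4) CPM on day 1, a log2 difference of 0.71 ± 0.18 (SE; adjusted p = 0.00281). Smtn ran from 26.5 to 35.9 (median 29.7) CPM on day 27 and 15.9 to 23.3 (median 21.1) CPM on day 1, and these 2 groups did not overlap (0.58 ± 0.15, SE; adjusted p = 0.0048). Acta2 rose by 0.59 ± 0.16 (SE; adjusted p = 0.00443), with 2 day 1 rats at 87.7 and 88.6 CPM inside the day 27 range.

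Lmod1 rose in dust rats by 0.58 ± 0.17, Myocd by 0.52 ± 0.16 and Myh11 by 0.42 ± 0.14 (SE; adjusted p = 0.00796, 0.0111 and 0.0176). Lmod1 ran from 28.4 to 46.6 (median 36.04) CPM on day 27 and 18.4 to 29.8 (median 24.3) CPM on day 1, so the highest day 1 rats reached the lowest day 27 rats. Des had 0.29 ± 0.12 (SE; adjusted p = 0.0591). Tagln, Actg2 and Cnn1 had -0.13 ± 0.11, -0.05 ± 0.18 and 0.05 ± 0.21 (SE; adjusted p = 0.38, 0.855 and 0.893). The median over the 10 members was 0.47, beside -0.0085 over all genes. Without dust rat 58 Myh11 did not pass (0.36, adjusted p = 0.0532) and 5 members were called; without dust rat 60 or 90, 7 were. Markers of other cells also differed between these days: 5 of 7 mesothelium genes fell (list median -0.60), as did 2 of 8 ciliated cell genes (-0.32), while of 10 fibroblast genes 2 rose and 3 fell and of 10 endothelial genes 3 rose. The summed mesothelium level was 282 to 423 CPM on day 27 and 333 to 566 CPM on day 1. Of 17 heart muscle genes 0 were called. The part of mesothelial, ciliated, fibroblast and endothelial cells in the change of the members was not tested.

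In air rats of the 30 mg/m3 study 4 of 10 members rose and 0 fell between day 1 and day 27, where 12.9% of all genes were called, 5.55% higher and 7.36% lower. Lmod1 rose by 0.62 ± 0.16, Acta2 by 0.60 ± 0.16, Myh11 by 0.48 ± 0.14 and Des by 0.47 ± 0.12 (SE; adjusted p = 0.0133, 0.0124, 0.0197 and 0.0115). Lmod1 ran from 33.1 to 47.6 (median 42.8) CPM on day 27 and 19.5 to 34.3 (median 25.96) CPM on day 1, and the highest of the day 1 rats, at 34.3 CPM, reached into the day 27 range. Leaving out air rat 52 or 53 alone put Myh11 just short of the threshold (0.44 each, adjusted p = 0.0549 and 0.0511). Synpo2 had 0.44 ± 0.17 and Smtn 0.32 ± 0.15 (SE; adjusted p = 0.0845 and 0.146). Without air rats 51 and 53, left out after the data were seen, the same 4 members passed, with Acta2 at 0.69, Lmod1 at 0.63, Myh11 at 0.59 and Des at 0.55. Whether the change over time differed between dust and air rats is the day dependence given above, which called no member.

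By day 7 the air rats of the 30 mg/m3 study had positive differences from those of day 1 in all 10 members, of which 0 passed, where 0.116% of all genes were called. Unadjusted p was under 0.05 for 8 members and 1871 genes; DESeq2 called 0 members. Des and Acta2 had the smallest p, with 0.43 ± 0.12 and 0.53 ± 0.16 (SE; adjusted p = 0.15 and 0.156), and Acta2 was higher in every day 7 rat, 77.95 CPM or more, than in every day 1 rat, 74.2 CPM or less. Myh11 came next with 0.37 ± 0.14 (SE; adjusted p = 0.25). Without air rats 51 and 53, Cnn1 (0.90, edgeR adjusted p = 0.028) and Des (0.51, edgeR adjusted p = 0.0441) passed. The day 1 rats that remained include rats 54 and 55, the lowest of all 64 rats for Cnn1. Their part in the Cnn1 call was not tested. The 0.116% holds for all rats, and the share of all genes called without rats 51 and 53 was not counted. Heart muscle markers summed to 580.3 to 2042 CPM in air rats of day 7 and 133 to 851 CPM in those of day 1. Over 18 alternative runs, which include the heart muscle score as a covariate, Des had 0.29 to 0.52. Acta2 had 0.38 to 0.62 and Myh11 0.25 to 0.49 over the same runs.

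At 10 mg/m3 fewer members passed over time. In dust rats 2 of 10 rose between day 1 and day 27, where 2.34% of all genes were called, 1.54% higher and 0.791% lower. Myh11 rose by 0.72 ± 0.16 and Lmod1 by 0.66 ± 0.16 (SE; adjusted p = 0.0216 and 0.0311). Lmod1 measured 42.4, 42.5, 47.1 and 47.5 CPM on day 27 and 23.2, 23.6, 27.04, 30.3 and 42.1 CPM on day 1, so the groups did not overlap, rat 27 being the day 1 rat closest to the older lungs. Leaving out 1 rat at a time moved the count from 0 to 4: it was 4 without rat 27, which added Acta2 (0.97, adjusted p = 0.0203) and Synpo2 (0.71, adjusted p = 0.0249), 1 without dust rat 32, 2 without dust rat 16, and 0 without dust rat 29, 30, 31, 13, 14 or 15. In air rats 0 members passed, where 2.97% of all genes were called. There 1 member and 2938 genes had an unadjusted p under 0.05, and DESeq2 called 0 members. Lmod1 had 0.34 ± 0.16 (adjusted p = 0.247), Synpo2 0.44 ± 0.29 (adjusted p = 0.442) and Actg2 -0.27 ± 0.19 (adjusted p = 0.472), each with its SE.

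In air rats of the 10 mg/m3 study, Des had a negative difference between day 7 and day 1. It was -0.61 ± 0.19 (SE; adjusted p = 0.0535), just short of the threshold, where 5.9% of all genes were called and 0 members passed. Before adjustment 1 member and 3585 genes had p under 0.05. DESeq2 called Des (adjusted p = 0.0189), and so did edgeR without air rat 19, 21 or 37 (adjusted p = 0.0473, 0.0298 and 0.0117). The heart muscle markers of these groups summed to 138 to 1316 CPM on day 7 and 106 to 1894 CPM on day 1, and with the heart muscle score as a covariate the Des difference was -0.55 (adjusted p = 0.0531). Tagln and Myh11 had -0.27 ± 0.14 and 0.27 ± 0.15 (SE; adjusted p = 0.232 and 0.291).

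**Figure D3:**
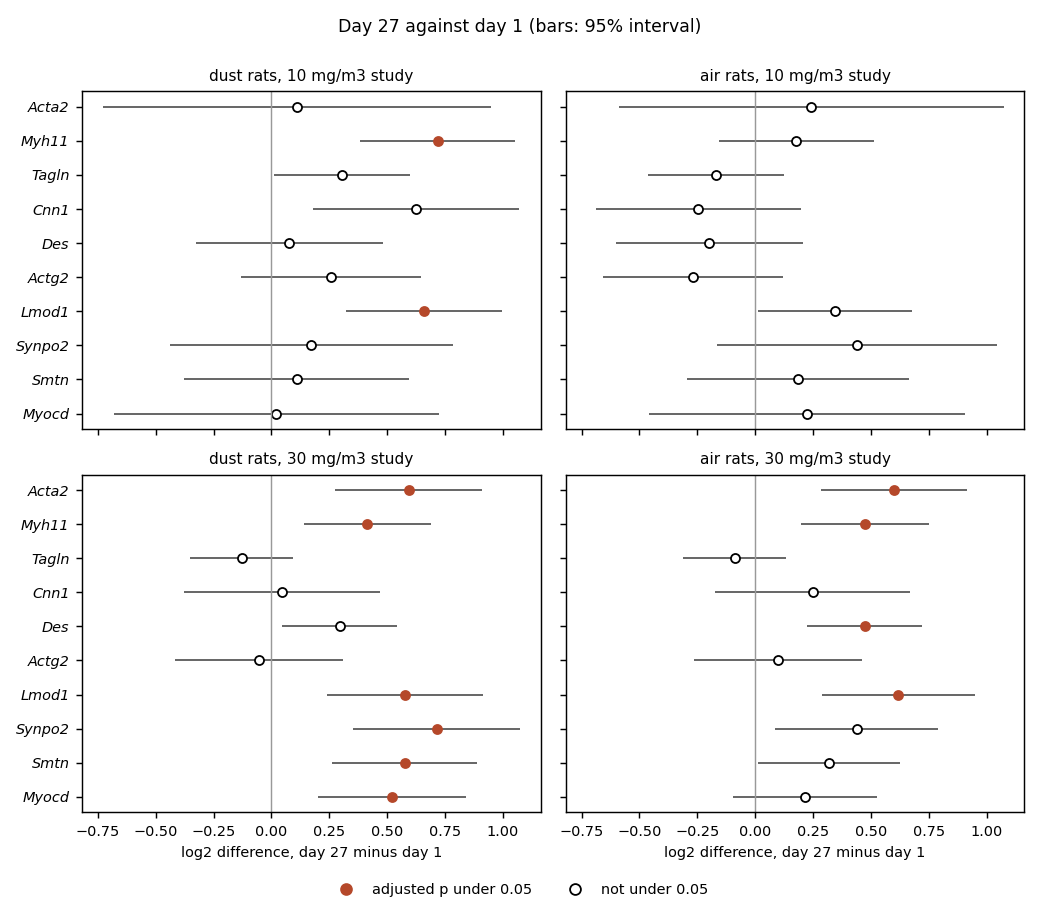
Log2 difference of day 27 minus day 1 for each gene with its 95% interval, for dust rats (left) and air rats (right) of the 10 mg/m3 study (top) and the 30 mg/m3 study (bottom). Filled dots passed an adjusted p of 0.05: 6 members in dust rats and 4 in air rats at 30 mg/m3, 2 in dust rats and 0 in air rats at 10 mg/m3.

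The share of counts on Rnr1 and Rnr2 also varied with the day. Among dust rats of the 30 mg/m3 study it averaged 0.27 ± 0.13%, 0.256 ± 0.14% and 1.00 ± 0.461% on days 1, 7 and 27 (SD, n = 6 each), and among air rats 0.459 ± 0.283%, 0.678 ± 0.157% and 1.14 ± 0.433%. At 10 mg/m3 it averaged 1.05 ± 0.888%, 2.09 ± 0.646% and 2.91 ± 0.290% among dust rats and 0.734 ± 1.28%, 1.61 ± 1.62% and 3.33 ± 0.454% among air rats (SD, n = 5, 5 and 4). With the log2 of this share as a covariate, chosen after the data were seen, 0 members passed between day 27 and day 1 in dust rats and 0 in air rats at 30 mg/m3, and 1, Myh11 (0.61, adjusted p = 0.0391), in dust rats at 10 mg/m3. The 6 members that had risen in dust rats at 30 mg/m3 then had 0.10 to 0.23. How many of all genes passed with this covariate was not counted. Day after exposure, age of the rat and the share cannot be told apart in this design.

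Of 17 regulators tested in dust rats of the 30 mg/m3 study, 10 rose and 0 fell between day 1 and day 27, where 17% of all genes were higher and 17.3% lower. Mkl1 and Mkl2, the actin-sensing coactivators of Srf, rose by 0.69 and 0.96 on the log2 scale (adjusted p = 0.000419 and 0.000551). Tgfb1, the growth factor TGF-beta 1, rose by 0.91, Tead1, a partner of the Hippo pathway, by 0.58, and the Notch ligand gene Jag1 by 0.32 (adjusted p = 0.00178, 0.001 and 0.00116). The list's median was 0.32. In air rats, where 5.55% of all genes were higher and 7.36% lower, 2 of the 17 rose, Jag1 by 0.41 and Smad3, a transducer of TGF-beta, by 0.38 (adjusted p = 0.000502 and 0.0325), with a median of 0.23 over the list.

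In dust rats at 30 mg/m3, 5 of 29 other contractile and cytoskeletal genes rose between day 1 and day 27 and 4 fell, both counts near the shares of 17% and 17.3% over all genes. Among those that rose were Mrvi1, Actn1, Ppp1r12b and Flna, by 0.30, 0.27, 0.24 and 0.23, the last of them the actin crosslinker filamin A. The myosin light chain Myl6 fell by 0.42, Pdlim3 by 0.35, Mustn1 by 0.27 and Filip1l by 0.24. In air rats 0 rose and 4 fell, against 5.55% and 7.36% of all genes, among them Myl6 by 0.34 and the calponin relative Cnn2 by 0.27. The list's median was 0.05 in dust rats and -0.0040 in air rats.

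Of 23 receptors and channels that govern the tone of smooth muscle, 4 rose and 4 fell in dust rats at 30 mg/m3, again near the 17% and 17.3% of all genes. The prostacyclin receptor Ptgir rose by 0.62, the alpha-1A adrenergic receptor Adra1a by 0.44, the calcium channel subunit Cacna1c by 0.37 and the cGMP-dependent kinase Prkg1 by 0.28. The angiotensin receptor Agtr1a fell by 0.46, the leukotriene receptor Cysltr1 by 0.36, the small GTPase gene Rhoa by 0.29 and Gucy1a3 by 0.28. In air rats 0 rose and 3 fell, against 5.55% of all genes higher and 7.36% lower. The 3 were Agtr1a by 0.42, Gucy1a3 by 0.25 and Rhoa by 0.22. Pericyte markers, which share the vessel wall with smooth muscle, included 1 of 12 that rose and 3 that fell in dust rats, near those same shares: Cspg4 rose by 0.58, while Postn fell by 0.59, Cox4i2 by 0.59 and Rgs5 by 0.24. In air rats Cspg4 rose by 0.45 and 4 of the 12 fell, where only 5.55% of all genes were higher and 7.36% lower. The summed level of the 12 pericyte markers was 1726 to 2087 CPM on day 27 and 2094 to 2514 CPM on day 1 in dust rats at 30 mg/m3, and these ranges did not overlap; its part in the change of the members was not tested.

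The air rats of both studies were compared as a description, since study, time and batch cannot be told apart there. Acta2 was the 1 member that differed, lower in air rats of the 30 mg/m3 study, with a difference of -0.53 ± 0.16 (SE; edgeR adjusted p = 0.00843) on the average of the 3 days, where 29.8% of 16190 genes were called, 12.7% higher and 17.1% lower. Acta2 averaged 64.8 ± 5.81, 93.7 ± 9.97 and 98.5 ± 23.8 CPM on days 1, 7 and 27 in the 30 mg/m3 study (SD, n = 6 each), against 118 ± 45.2, 106 ± 31.4 and 139.9 ± 36.5 CPM in the 10 mg/m3 study (SD, n = 5, 5 and 4). Myh11 had -0.18 ± 0.09 (SE; adjusted p = 0.122), and passed with the heart muscle score as a covariate (-0.25, adjusted p = 0.0462). Without air rats 51 and 53 Acta2 was at -0.56 (adjusted p = 0.00887) and again the 1 member that passed. The other 8 members had differences between -0.26 and 0.16.

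Rat to rat, some pairs of members varied together far more closely than others. After the group mean was taken off, log2 CPM was correlated over the 64 rats, with p from a permutation test within groups (100000 draws, two-sided, adjusted over the 45 pairs). Of the 45 pairs, 34 had an adjusted p under 0.05, 33 of them positive, and 5 pairs had r below 0. How many pairs of all genes would pass was not computed, so this count cannot be read as particular to the members. Tagln, Cnn1 and Actg2 were close to each other: r was 0.82 for Tagln and Cnn1 (rho 0.81), 0.84 for Cnn1 and Actg2 (rho 0.83) and 0.80 for Tagln and Actg2 (rho 0.77), each with p = 1e-05, the smallest the draws could give, and adjusted p = 2.81e-05. These 3 correlations held within each study, at 0.78, 0.80 and 0.76 in the 10 mg/m3 study, against 0.87, 0.86 and 0.84 at 30 mg/m3. Without the 2 rats farthest from the median they were 0.81, 0.81 and 0.76.

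Synpo2 and Smtn formed the other close pair, with r = 0.85 (rho 0.81), 0.83 in the 10 mg/m3 study, 0.86 in the 30 mg/m3 study and 0.78 without the 2 farthest rats. Acta2 went with Synpo2 (r 0.82, rho 0.72; 0.73 without rat 27), Myocd (r 0.72, rho 0.49; 0.58 without rat 27) and Smtn (r 0.65, rho 0.59; 0.53 without rat 27). Between these genes and Tagln, Cnn1 and Actg2 the relation ran from positive to negative. Acta2 and Actg2 had r = 0.47 (rho 0.52; permutation adjusted p = 0.000504), Lmod1 and Actg2 0.39 (rho 0.49; adjusted p = 0.00603) and Acta2 and Cnn1 0.35 (rho 0.44; adjusted p = 0.00193). Tagln and Smtn had r = -0.34 (rho -0.34; permutation adjusted p = 0.0138), -0.30 in the 10 mg/m3 study, -0.38 in the 30 mg/m3 study and -0.27 without the 2 farthest rats, the 1 negative pair under the threshold. Tagln and Acta2 had r = 0.16 (adjusted p = 0.25) but rho = 0.30 (permutation adjusted p = 0.0277), and r was 0.26 without rat 27 and 0.33 without the 2 farthest rats. Tagln and Myocd had r = -0.14 and rho = -0.15 (adjusted p = 0.381 and 0.321). Myh11 had the highest r to the mean of the other 9 members, 0.85, where Tagln had the lowest, 0.32. Des and Myh11 were positive with every other member, at r from 0.37 to 0.69 and from 0.36 to 0.75. Without rat 27, 32 of the 45 pairs passed. This grouping of the genes was noticed in these values and has no test of its own.

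**Figure D4:**
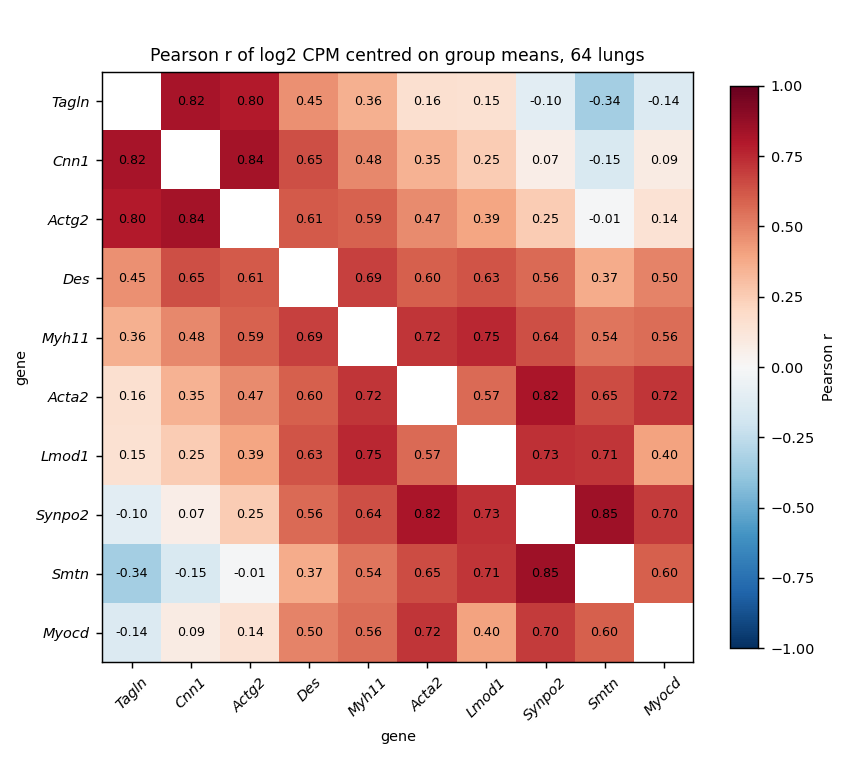
Pearson r between the 10 genes over 64 lungs, from log2 CPM with each group's mean taken off; red is positive and blue negative. Tagln, Cnn1 and Actg2 form a dark square at the upper left (0.80 to 0.84), and Acta2, Lmod1, Synpo2, Smtn and Myocd a more uneven one at the lower right (0.40 to 0.85). Des and Myh11, placed between them, are positive with every other gene (0.37 to 0.69 and 0.36 to 0.75), so the 2 squares are not separate. Acta2 with Actg2 is at 0.47, and Tagln with Smtn is the most negative cell (-0.34).

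Of the 3 members whose promoters are shown above, Cnn1 was closest to Actg2, while Smtn and Acta2 were both closest to Synpo2. Among the 3 themselves, r was 0.65 for Acta2 and Smtn, 0.35 for Acta2 and Cnn1 and -0.15 for Cnn1 and Smtn. The window of Acta2 held 2 relaxed matches and that of Synpo2 none.

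The genes outside the set that resembled its mean most closely included several of muscle. The 15145 genes with at least 1 CPM were ranked by r to the mean of the 10 members over 64 rats. Kank1 was the first, with r = 0.80 (0.85 at 10 mg/m3 and 0.74 at 30 mg/m3). Speg, a striated and smooth muscle kinase, and the muscle filamin Flnc followed at 0.80 each, and Map1b and Mrvi1, a target of cGMP-dependent kinase, at 0.74 each. Among the next 10 were Ppp1r12b (0.73), Hspb6 (0.70), Fam129a, Cacna1h, Lgr6, Ntrk3, Lgi4, Scube3 and Fbxl22 (0.67). Over all genes the median r was -0.014 and the range -0.72 to 0.80. Of the other 29 contractile genes the median r was 0.30 (range -0.40 to 0.74), of the 17 regulators 0.31, of the 12 pericyte genes 0.03, of the 10 fibroblast genes 0.22 and of the 17 heart muscle genes 0.27. Lists of other tissues also reached such medians: cartilage 0.44 (2 genes), skeletal muscle 0.35 (3), endothelium 0.26 (10) and secretory airway cells 0.23 (6). Lower medians were those of ciliated cells 0.17, receptors and channels 0.11, alveolar type 2 cells -0.14 and mesothelium -0.24.

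Taken singly, the members pointed to different neighbours. For Tagln and for Actg2 the closest gene was Tpm2, a tropomyosin of the contractile actin filament (r 0.85 and 0.86), and for Myh11 it was Mrvi1 (0.83). For Smtn it was Nckap5l (0.90), for Synpo2 Zfp609 (0.88) and for Myocd Nhsl2 (0.85), none of which is known as a contractile protein. Among the 50 closest genes of each, Myh11 and Actg2 counted 5 members, Acta2, Des and Lmod1 3, Tagln and Cnn1 2, Synpo2 1, and Smtn and Myocd 0. Smtn and Synpo2 had many close genes: 5.82% and 3.93% of 15154 genes had r of at least 0.7 with them, against 0.0264% for Tagln and 0.0198% for Actg2.

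The balance of Tagln and Smtn, as the difference of their log2 CPM with group means taken off, had r = -0.63 and rho = -0.58 with the log2 share over 64 rats (permutation p = 2e-05 and 1e-05, adjusted p = 8e-05 and 4e-05 over 4 measures). It was -0.72 in the 10 mg/m3 study, -0.51 in the 30 mg/m3 study, and -0.55 without air rats 21 and 37, the 2 rats with the most extreme share. Of the other 3 measures, library total had r = 0.06 (adjusted p = 0.707), with 0.59 at 10 mg/m3 and -0.41 at 30 mg/m3, genes with counts 0.34 (adjusted p = 0.117) and the heart muscle score 0.10 (adjusted p = 0.684). By member, the level was positively correlated with the share for Smtn (r 0.67), Synpo2 (0.56), Lmod1 (0.50), Acta2 (0.44) and Myh11 (0.35), at a permutation adjusted p of 0.0001, 0.0001, 0.000133, 0.0122 and 0.0122 over the 10 members. Spearman's rho was 0.68, 0.65, 0.55, 0.51 and 0.40 for these 5 genes. For Myocd r was 0.34 (adjusted p = 0.0686) and rho 0.41 (permutation adjusted p = 0.00458), so that it passed by rank alone. For Actg2 r was 0.01 and rho 0.04, and for Tagln -0.29 and -0.24 (permutation adjusted p of rho = 0.779 and 0.149). How many of all genes were correlated with the share was not computed, so these counts cannot be read as particular to the members. The 5 genes that passed by r were also among the 6 members that rose by day 27 in dust rats at 30 mg/m3. Both lists come from the same libraries and from members correlated with each other, and day and share cannot be told apart in this design.

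**Figure D5:**
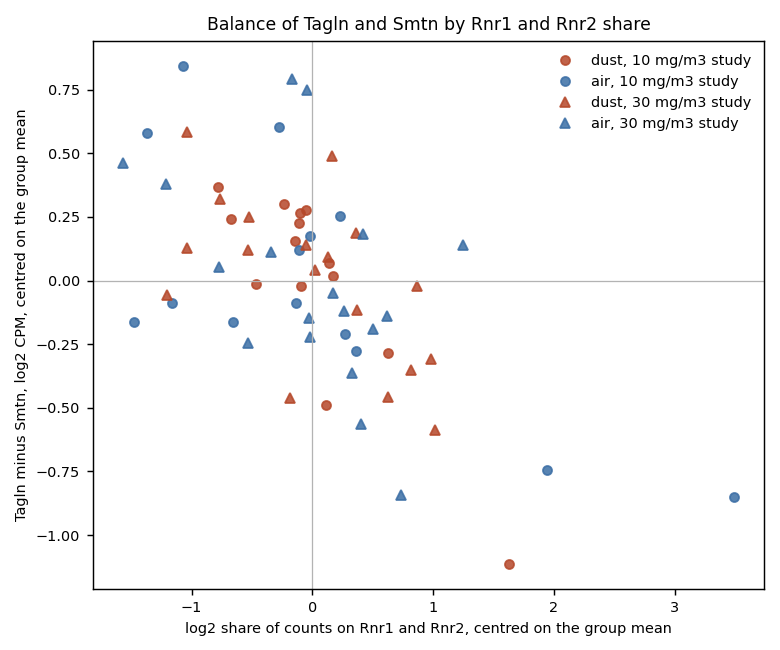
Balance of Tagln and Smtn (log2 CPM of Tagln minus that of Smtn, group mean taken off) against the log2 share of counts on Rnr1 and Rnr2 (group mean taken off); each point is 1 of 64 rats, circles the 10 mg/m3 study and triangles the 30 mg/m3 study, red dust and blue air. The points fall from upper left to lower right (r = -0.63), with air rats 21 and 37 and dust rat 27 at the lower right. The 2 genes were the most negative pair of members in these same values.

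Against the heart muscle score 2 members had an adjusted p under 0.05 over the 64 rats. Des had r = 0.47 (rho 0.42; permutation adjusted p = 0.0118 and 0.0221), with 0.45 at 10 mg/m3 and 0.51 at 30 mg/m3, and 0.39 without the 2 rats of the most extreme score. Cnn1 had r = 0.39 (rho 0.35; adjusted p = 0.0223 and 0.0531). The other 8 members had r between 0.03 and 0.25. Correlation with this score was not computed over all genes. With Myh6 alone in place of the list, or without the 2 farthest rats, 0 members passed, and the same held in the 10 mg/m3 study alone, where Des and Cnn1 had 0.45 and 0.31; in the 30 mg/m3 study alone 2 passed.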

How the data were processed

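Total RNA of 64 rat lungs was depleted of ribosomal RNA and sequenced with a stranded kit, per the labels' protocols. The authors deposited raw read counts per gene symbol, 1 table per study. The submitters' processing notes name Trimmomatic 0.35, HISAT2 2.1.0, SAMtools 1.8, HTSeq 0.6.1 and Rnor_6.0; the counting's annotation and strand setting, not given in the sources used here, leave overlapping or antisense genes uncertain. Library totals ran from 3420235 to 12359518 counts. The labels give each rat its own number, and the closest pair of replicates differed by a chi-square of 2.07 per degree of freedom, so none was taken for a repeat.

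Counts were tested with edgeR 4.0.16 in R 4.3.3 (TMM scaling, genes kept by filterByExpr at 10 counts in a library and 15 in total, robust quasi-likelihood test, Benjamini-Hochberg adjustment over all genes, threshold 0.05), with 1 fit of 6 groups per study. A fit of all 64 libraries gave the dose differences and the comparison of air rats. Fold changes come from these fits and levels (CPM) from scaling over 64 libraries. On simulated day 7 data, 95% of 100 genes changed by 1 log2 unit were recovered at 10 mg/m3 (15518 genes) and 98% at 30 mg/m3 (15423 genes), beside 13 and 16 false calls. The simulation gave every gene the same spread between rats, with no rat standing apart. Its recovery therefore does not carry over to members that vary more, such as Acta2, whose SE on day 7 at 10 mg/m3 was 0.38. P-values measure the spread between rats. Alternatives were DESeq2 1.42.0, its size factors, no filter, the compared groups alone, the heart muscle score as a covariate and leaving out each rat; leaving out air rats 51 and 53 together, leaving out dust rat 27 in the fit of 64 libraries, and the Rnr1 and Rnr2 share as a covariate, were added after seeing the data. The members and gene lists were chosen with earlier results of these data known. Members named in a comparison are those called and the 3 with the smallest p; other genes are those called in a list, up to 5 a direction, or its 2 smallest p; 1 gene that this rule names is not reported here.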

Additional observations from a re-analysis of the deposited data

Results flagged for a closer look

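Of 120 sets of 1 gene in 1 group, 10 had a rat standing apart from the others by Dixon's test at the 95% level, which chance alone gives in about 1 of 20 sets. Of these, 6 were the same rat. Rat 27 of the day 1 dust group at 10 mg/m3 was the highest of its 5 rats for Acta2 (397 CPM, the others 72.8 to 78.3), Myh11 (830, the others 459 to 553), Des (128, the others 85.05 to 94.3), Synpo2 (121, the others 30.0 to 37.6), Smtn (56.6, the others 20.8 to 24.4) and Myocd (20.3, the others 5.00 to 6.36). It did not stand apart for Tagln, Cnn1, Actg2 or Lmod1 by this test.

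The other 4 flags were spread over 4 groups. Air rat 51 of day 1 at 30 mg/m3 had 747 CPM of Myh11, where the other 5 had 444 to 512. Among day 7 dust rats at 10 mg/m3, rat 43 had 88.9 CPM of Actg2, where the other 4 had 58.05 to 66.6. Lmod1 was 45.8 CPM in air rat 37 of day 7 at 10 mg/m3, where the other 4 had 25.6 to 30.7, while among day 7 dust rats at 30 mg/m3 rat 79 had 19.9 CPM and the other 5 had 32.6 to 38.3. With all rats, 0 members passed a test of the dust effect differing between days or doses; without air rats 51 and 53, Cnn1 and Tagln passed that of the doses on day 1 (edgeR adjusted p = 0.015 and 0.0235).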

How the results depend on the processing

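Against air of the same day, or on the average of days, 0 members passed in every alternative run at either dose. Changes over time depended more on settings. Between day 7 and day 1 in air rats at 10 mg/m3 the count of members was 1 with DESeq2 and 0 to 1 when 1 rat was left out, against 0. Between day 27 and day 1 in dust rats at 10 mg/m3 it was 0 to 4 when 1 rat was left out, against 2. With the Rnr1 and Rnr2 share as a covariate, added after seeing the data, it was 1 there, 0 in dust rats at 30 mg/m3 (against 6) and 0 in air rats (against 4). Without air rats 51 and 53, also added, 2 members passed between day 7 and day 1 in air rats at 30 mg/m3, against 0, and 2 in the dose difference on day 1, against 0. For air rats of both studies the count was 2 with the heart muscle score as a covariate, against 1. Apart from DESeq2, calls over all genes were not counted in these alternatives, so the member counts have no background beside them. The count of members correlated with that score was 0 with Myh6 alone, 0 without the 2 farthest rats and 0 in the 10 mg/m3 study, against 2.

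Signs reversed for Des with the heart muscle score as a covariate, to 0.0667 for dust against air on day 7 at 30 mg/m3 and 0.0175 for the dose difference on day 7. They reversed with the Rnr1 and Rnr2 share for Synpo2 in the 10 mg/m3 average (-0.0112), and for Lmod1 (-0.17) and Synpo2 (-0.40) between day 27 and day 1 in air rats at 10 mg/m3. The cause was not tested. Single rats decided 2 calls at 30 mg/m3: between day 27 and day 1 Myh11 had an adjusted p of 0.0549 and 0.0511 in air rats without rat 52 or 53, and of 0.0532 in dust rats without rat 58. Of all values recomputed, 1413 were taken as the same, 27 lost and 7 gained a call, 23 moved and 5 reversed. For a single member, the same means that direction and side of the threshold were kept. A count was the same if equal or within a set ratio, so calls can differ there. A median of members was the same, whatever its sign, if it shifted by less than the median within-group SD. Myocd, at 22 to 102 reads, is limited most by depth. No paired analysis was possible because each rat has a number of its own and groups share none.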
